A study of Arabidopsis thaliana with 12 samples.

Results

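Nuclear genes for the ribosomal proteins of chloroplasts and mitochondria were followed in whole 7-day-old Arabidopsis thaliana seedlings. Members were the genes that the authors' table describes as a 30S or 50S ribosomal protein and that lie outside both organelle genomes. This gave 43 of the 32833 genes in the table. The description names the chloroplast for 37 of them (10 of the 30S subunit and 27 of the 50S subunit) and the mitochondrion for 4. It names no organelle for the remaining 2, AT5G24490 and AT5G16200. RNA sequencing covered 12 libraries in 4 groups of 3 replicates. The groups were wild-type Col-0 seedlings (wt) under control conditions, wt held at 38 °C for the last 3 h, and both treatments again in a triple mutant labelled hop1 hop2 hop3 (hop). HOP proteins are co-chaperones that connect HSP70 with HSP90. The mutant alleles are not given in the labels, nor do they say whether replicates were grown separately. The p-values therefore cover only the variation among these libraries, part of which could be technical.

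Chloroplasts and mitochondria keep ribosomes of bacterial type, with a small 30S-like and a large 50S-like subunit. Chloroplast ribosomes make the subunits of the photosystems, of the ATP synthase and the large subunit of Rubisco that the chloroplast genome encodes. Their own proteins come from both genomes: some are encoded in the chloroplast, while most are encoded in the nucleus, made on cytosolic ribosomes and imported. A few, the plastid-specific ribosomal proteins (PSRPs), have no counterpart in the ribosome of Escherichia coli or were first described as such.

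All 43 members matched a RefSeq gene (assembly TAIR10.1) by locus tag. They lie on every nuclear chromosome, with 13 on chromosome 1, 5 on chromosome 2, 11 on chromosome 3, 3 on chromosome 4 and 11 on chromosome 5. Coding lengths ran from 297 to 1041 bases with a median of 597, and 9 members have 1 coding exon. The bases just upstream of 3 members' annotated starts are printed here, read 5′ to 3′ on the gene's strand from the RefSeq TAIR10.1 genome and ended at a neighbouring gene where one lies closer than 250 bases. RPL3A and RPL3B are shown because both are described as chloroplast L3 and differed most in their response to heat. AT5G24490 is shown because it fell most under heat. The windows are chr2:17894636-17894795 on the plus strand for RPL3A, chr3:5979695-5979813 on the minus strand for RPL3B and chr5:8365351-8365600 on the plus strand for AT5G24490. No base is in capitals, since none of the motifs searched for occurs in these windows.
RPL3A: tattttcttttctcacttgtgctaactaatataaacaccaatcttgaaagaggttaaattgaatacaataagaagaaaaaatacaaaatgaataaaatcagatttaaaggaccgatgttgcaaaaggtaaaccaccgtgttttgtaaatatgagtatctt
RPL3B: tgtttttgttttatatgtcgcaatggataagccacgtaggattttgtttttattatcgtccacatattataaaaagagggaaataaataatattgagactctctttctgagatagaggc
AT5G24490: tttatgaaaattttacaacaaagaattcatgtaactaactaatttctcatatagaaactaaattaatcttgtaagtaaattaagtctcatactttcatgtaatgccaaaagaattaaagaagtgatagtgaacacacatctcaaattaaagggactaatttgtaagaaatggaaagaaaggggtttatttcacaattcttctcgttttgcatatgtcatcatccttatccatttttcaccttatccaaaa

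TGGGCC and TGGGCT are forms of the site II element, which TCP transcription factors are known to bind in plant ribosomal protein promoters. Either form was found, on either strand of the 250 bases upstream, in 18 of 43 members (41.9%), in 149 of 218 cytosolic ribosomal protein genes (68.3%) and in 5264 of 27443 protein-coding genes (19.2%). Both forms may stand in 1 promoter. The telo-box AAACCCTA, another element of such promoters, was found in 5 members (11.6%), against 22% of cytosolic ribosomal protein genes and 4.49% of all genes. The G-box CACGTG, known from light-regulated promoters, was found in 3 members (6.98%) and in 6.49% of all genes. A heat shock element of 3 alternating units (GAA, TTC, GAA, with 2 free bases between units) was found in 0 members and in 0.386% of all genes, which says only that these letters are not in these windows.

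The libraries held 26.1 to 38.7 M fragments assigned to genes. A normalized count of the deposited table is a fragment count divided by 1 factor per library, and 1 fragment was worth 0.614 to 0.913 at control and 1.03 to 1.66 under heat. The deposited scale therefore sets heat libraries higher than total fragments would, and heat responses are mostly given on both scales. The targeted genes did not all follow the label. HOP2 fell from 556 ± 76.5 normalized counts in wt control (SD, n = 3) to 7.07 ± 0.664 in hop control, and HOP3 from 80.7 ± 6.92 to 4.55 ± 4.7. Under heat HOP2 stood at 8002 ± 657 in wt and still at 4718 ± 587 in hop, and HOP3 at 111381 ± 19304 and 1272 ± 66.8. HOP1 stood at 650 ± 98.6 and 596 ± 69.6 (adjusted p = 0.917, limma) and, under heat, at 1216 ± 197 in wt and 2068 ± 359 in hop. Hop therefore denotes the libraries labelled hop1 hop2 hop3. As whole seedlings should, all groups held green tissue markers (RBCS1A at 407030 to 596350 normalized counts) and root markers (group means of EXPA7, COBL9, CASP1 and CASP2 from 28.2 to 799). Under heat RBCS1A was higher in hop than in wt by 0.49 on the log2 scale (adjusted p = 0.0372, limma), or 0.36 with library size alone. LHCB1.3, the other green marker, differed there by 0.23 (adjusted p = 0.393, limma). It was higher under heat in hop by 0.47 (adjusted p = 0.0162, limma) and stood at 0.33 in wt (adjusted p = 0.0797), but at -0.46 and -0.56 with library size alone. The root markers did not move one way: under heat in wt EXPA7, of root hair cells, was higher by 2.11 and CASP2, of the Casparian strip, lower at -2.92 (1.24 and -3.82 with library size alone), while COBL9 and CASP1 stood at -0.64 and -0.36 and passed no test on the deposited scale. Seed storage markers varied between libraries, CRA1 from 7.88 to 478. OLEO1 stood at 12.8 in wt and 62.2 in hop at control, and at 20.7 and 49.6 under heat. SESA3 went the other way, at 7.37 and 1.58 at control and at 3.75 and 3.06 under heat. These seed markers passed no test in limma. The part of green tissue, of these root cells or of seed storage transcripts in the members' responses and genotype differences was not tested. The share of fragments on chloroplast-encoded genes varied between libraries from 3.76% to 9.35% and among heat libraries was highest in replicate 2 of each genotype.

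The members described for the chloroplast were mostly abundant and the 4 described for the mitochondrion were not. Genes described without 30S or 50S are left out by the rule, so these members are only part of each ribosome. AT5G30510, AT3G27160 and AT2G24090, listed for a known role, were not members. Per kilobase of coding sequence, the median of the 37 chloroplast members in wt control was 10384 normalized counts, against 438 for the 4 mitochondrial members and 3795 for 218 cytosolic ribosomal protein genes. RPL29, whose bacterial counterpart sits at the exit of the peptide tunnel, had the highest level per kilobase among chloroplast members at 16720, with PSRP5, a plastid-specific 50S protein, at 16630 and RPS13, of the head of the small subunit, at 16360. In the same units AT5G24490 stood at 16050. The least abundant chloroplast members detected were RPL3B at 277 and AT5G15760, encoding 30S protein 3-2, at 160. RPL12B, another gene for the L12 protein of the stalk, had 0 fragments in all 12 libraries, which allows up to 0.0335 CPM (fragments in a library total of 1000000) in wt control and 0.0352 in wt heat, for counting error only. It was not tested, so 42 members entered the tests.

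In wt, 36 of 42 members were higher after 3 h at 38 °C and 2 were lower on the deposited scale (limma, Benjamini-Hochberg adjusted p under 0.05 over 23827 genes). Of all genes, 33.2% were higher and 35.8% lower in that comparison. The members' median log2 fold change was 0.70, against -0.08 over all genes, and with library size alone as the scale it was -0.18, against -0.94 over all genes. Relative to the median of all genes, the members thus stood higher by 0.78 and 0.76 on the log2 scale. With library size alone, edgeR called 2 members higher (RPL3B and AT5G16200) and 20 lower, against 13.3% and 60.9% of all genes, and 14 of the 36 members higher on the deposited scale were then lower. A correction for coding GC content and length, chosen after seeing the data, brought the median on the deposited scale to 0.39 in wt and 0.51 in hop. In whole seedlings, fewer cells of a type and less RNA per cell cannot be told apart. Heat libraries of wt lay above all control libraries for the 36 members called higher and below them for the 2 called lower, where 34.8% and 37.6% of all genes had such groups.

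The hop libraries gave nearly the same list. There, 37 of 42 members were higher and 2 lower on the deposited scale, with 33.3% of all genes higher and 35.2% lower. The median was 0.80, against -0.06 over all genes, and -0.12, against -0.97, with library size alone, where 2 members were called higher and 17 lower (13.1% and 61.8% of all genes). The 36 members higher in wt were also higher in hop, and the same 2 were lower in both. The member called higher in hop and not in wt was AT5G15760, with log2 fold changes of 0.50 in hop (adjusted p = 0.00822) and 0.17 in wt (adjusted p = 0.333). Its direction turned with library size alone, where it was called lower in both, at -0.41 in hop (adjusted p = 0.0446, edgeR) and -0.71 in wt (adjusted p = 0.00133). The interaction for AT5G15760 had an adjusted p of 0.686.

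**Figure D1:**
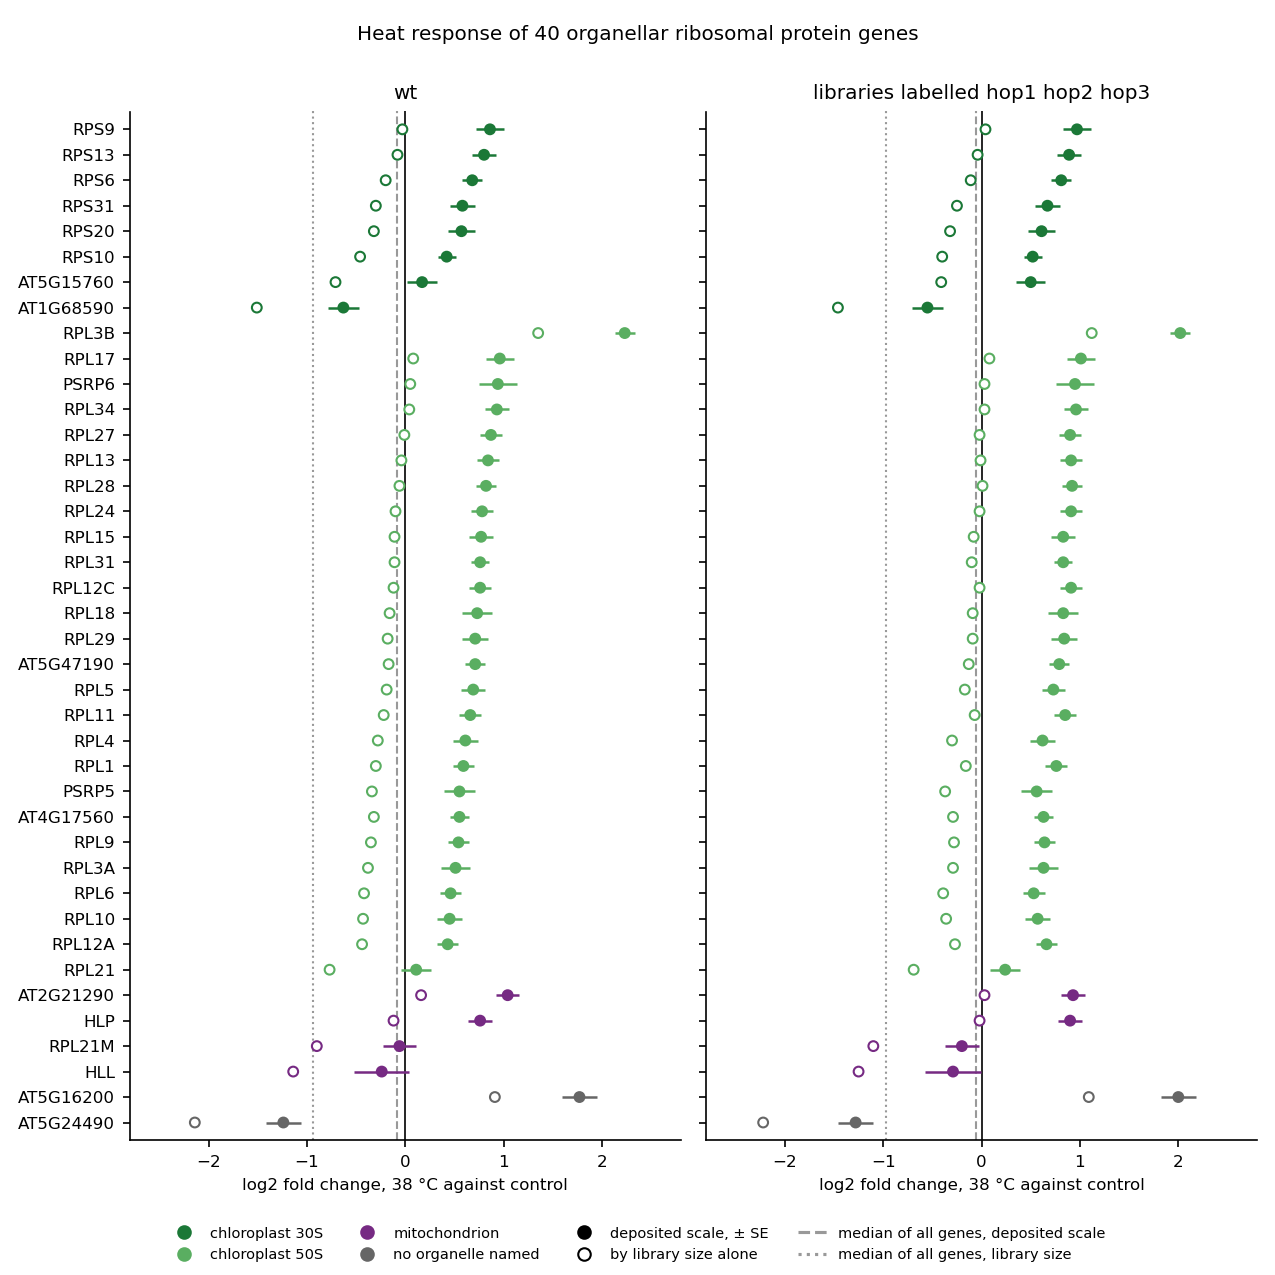
Log2 fold change of 40 members at 38 °C against control in wt (left) and in hop (right). Filled points are on the deposited scale with their SE, open points are by library size alone, and dashed and dotted lines mark the median of all genes on each scale. On the deposited scale most members stood near 0.7 in wt, but by library size alone most of the same members stood at or below 0, with the median of all genes at -0.94 in wt.

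Subunits of the chloroplast ribosome responded alike in direction. Of the 10 chloroplast 30S members, 8 were higher in wt and 1 was lower (median log2 fold change 0.63, or -0.25 with library size alone), and in hop 9 were higher and 1 lower. Of the 26 chloroplast 50S members tested, 25 were higher in each genotype (median 0.71 in wt and 0.83 in hop, or -0.17 and -0.09 with library size alone). The exception in the 50S subunit was RPL21, at 0.11 in wt and 0.24 in hop (adjusted p = 0.533 and 0.178). With library size alone RPL21 was called lower in both, at -0.77 and -0.69 (adjusted p = 9.10e-06 and 3.05e-05, edgeR). Mitochondrial members were divided, with 2 of 4 higher in each genotype.

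Among the most abundant members, RPL15, for a protein of the large subunit, had normalized counts of 13013, 10038 and 10621 in wt control and 19031, 20693 and 17632 in wt heat. All 3 heat libraries lay above all 3 controls, and the log2 fold change was 0.77 ± 0.12 (SE, adjusted p = 4.09e-05), or -0.11 with library size alone (adjusted p = 0.299, edgeR). RPL17, whose bacterial counterpart lines the exit of the peptide tunnel, had 11512, 8768 and 9707 at control and 19533, 21666 and 17206 under heat. Its rise on the deposited scale was 0.96 ± 0.14 in wt and 1.01 ± 0.14 in hop, and 0.08 in both genotypes with library size alone, which passed no test. RPL13, which binds early in bacterial 50S assembly, stood at 0.84 in wt and 0.91 in hop (-0.04 and -0.01 with library size alone). RPL1, of the mobile stalk next to the exit site for tRNA, stood at 0.59 and 0.76, but at -0.30 and -0.16 with library size alone, where the wt value was called lower (adjusted p = 0.0315).

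Proteins of the small subunit gave a range of responses. RPS9, whose bacterial counterpart reaches towards the tRNA in the head of the subunit, had 7013, 5341 and 5884 normalized counts in wt control and 11131, 12144 and 9738 in wt heat, with no overlap. Its log2 fold change was 0.86 ± 0.14 in wt and 0.97 ± 0.14 in hop, and -0.03 and 0.04 with library size alone. RPS13, which also reaches the tRNA there, stood at 0.80 in wt and 0.89 in hop, or at -0.08 and -0.04 with library size alone. RPS10, of the head of the subunit, had the smallest rise called in the 30S subunit in wt, 0.42 ± 0.09 (adjusted p = 5.37e-04), and was called lower at -0.46 with library size alone (adjusted p = 5.00e-04).

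Large-subunit proteins with other positions differed in size of response more than in direction. PSRP6, a plastid-specific 50S protein, stood at 0.94 in wt and 0.95 in hop, RPL34 at 0.93 and 0.96, and RPL27, next to the peptidyl transferase centre, at 0.87 and 0.90. With library size alone these 3 lay between -0.02 and 0.05 in both genotypes. RPL24 and RPL4, which bind early to the large-subunit rRNA, stood at 0.78 and 0.61 in wt. By library size alone RPL24 was at -0.10 (adjusted p = 0.335) and RPL4 at -0.28 (adjusted p = 0.0259). RPL11, at the base of the stalk where GTPase factors bind, stood at 0.66 in wt and 0.85 in hop, and RPL28, whose loss in Arabidopsis impairs greening, at 0.82 and 0.92 (by library size alone -0.22 and -0.06 in wt). The stalk genes RPL12A and RPL12C, with 93.4% identity over their aligned coding bases, stood at 0.43 and 0.76 in wt, and the authors' counting could split reads between them. RPL12A was called lower with library size alone, at -0.44 (adjusted p = 6.16e-04, edgeR) and RPL12C stood at -0.12 (adjusted p = 0.235).

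RPL3B was the member with the largest rise. L3 lies near the peptidyl transferase centre. RPL3A and RPL3B are both described as chloroplast L3 and share 59.8% identity over aligned coding bases. For RPL3B the organelle rests on that description alone and was not tested. Per kilobase in wt control, RPL3B stood at 277 normalized counts and RPL3A at 11110, with the median of the mitochondrial members at 438. RPL3B had 256, 264 and 291 normalized counts in wt control and 1235, 1310 and 1274 in wt heat. In hop it had 315, 323 and 339 at control and 1361, 1145 and 1488 under heat. Every heat library lay above every control library, by a log2 fold change of 2.23 ± 0.10 in wt (adjusted p = 2.79e-11) and 2.02 ± 0.10 in hop (adjusted p = 8.84e-11). It was also higher with library size alone, by 1.35 and 1.12. RPL3A had 10939, 7857 and 8407 in wt control and 12931, 14591 and 11009 in wt heat, a log2 fold change of 0.51 (adjusted p = 0.00781), or -0.38 with library size alone (adjusted p = 0.00264). The share of RPL3B in the normalized counts of both genes, which needs no scaling between libraries, was 2.28%, 3.25% and 3.35% in wt control and 8.72%, 8.24% and 10.4% in wt heat. In hop it went from 3.31% ± 0.602 (SD, n = 3) to 8.27% ± 1.76. The shares at control and under heat did not overlap in either genotype.

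AT5G16200, described only as related to a 50S ribosomal protein, rose as well. It had 53.8, 41.8 and 40.1 normalized counts in wt control and 141, 180 and 148 in wt heat, and 64.0, 55.2 and 42.2 against 217, 228 and 203 in hop. Groups did not overlap, and the log2 fold change was 1.77 ± 0.18 in wt (adjusted p = 3.38e-07) and 2.0 ± 0.18 in hop. Library size alone gave 0.91 and 1.09, both called higher (adjusted p = 1.31e-04 in wt). AT5G16200 was 1 of 3 members past a log2 fold change of 1 in wt, with RPL3B and AT2G21290, and 4 members passed it in hop, among them RPL3B, AT5G16200 and RPL17. Past the same limit, 17.9% of all genes were higher in wt and 18.1% in hop.

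AT5G24490 fell most. The table calls it a putative 30S ribosomal protein, and RefSeq notes a chloroplast location and an S30Ae domain. This domain marks the bacterial factors that bind idle ribosomes, and the gene is known as PSRP1. It had 12031, 15153 and 17447 normalized counts in wt control and 6228, 5837 and 6687 in wt heat. In hop it had 10662, 13315 and 18177 at control and 5800, 4744 and 6607 under heat. All heat libraries were below all control libraries, and the log2 fold change was -1.24 ± 0.18 in wt (adjusted p = 2.62e-05) and -1.28 ± 0.18 in hop (adjusted p = 1.89e-05). By library size alone it was -2.14 and -2.22. AT5G24490 was the most abundant member per fragment in wt control, at 686 CPM, and stood at 156 CPM in wt heat.

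AT1G68590 was the other member lower on both scales. It encodes 30S protein 3-1 (PSRP3), a plastid-specific protein of the small subunit, and had 4080, 3143 and 3202 normalized counts in wt control and 2271, 2210 and 2193 in wt heat. The log2 fold change was -0.63 ± 0.16 in wt (adjusted p = 0.00208) and -0.55 ± 0.16 in hop (adjusted p = 0.00573), or -1.51 and -1.46 with library size alone. Its paralog AT5G15760, with 69.7% identity over aligned coding bases, had 84.9, 87.2 and 92.4 in wt control and 110, 101 and 88.3 in wt heat, so these groups overlapped. The paralog's share of the pair went from 2.51% ± 0.416 to 4.28% ± 0.376 in wt (SD, n = 3) and from 1.58% ± 0.0757 to 3.31% ± 0.873 in hop, without overlap. Of 7 genes listed as plastid-specific ribosomal proteins, 3 were higher in wt (RPS31, PSRP5 and PSRP6), AT5G24490 and AT1G68590 were lower, and AT3G52150 and AT5G15760 passed no test there. Of all genes, 33.2% were higher and 35.8% lower in wt. By library size alone, 0 of the 7 were called higher and 6 lower in wt, beside 13.3% and 60.9% of all genes.

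**Figure D2:**
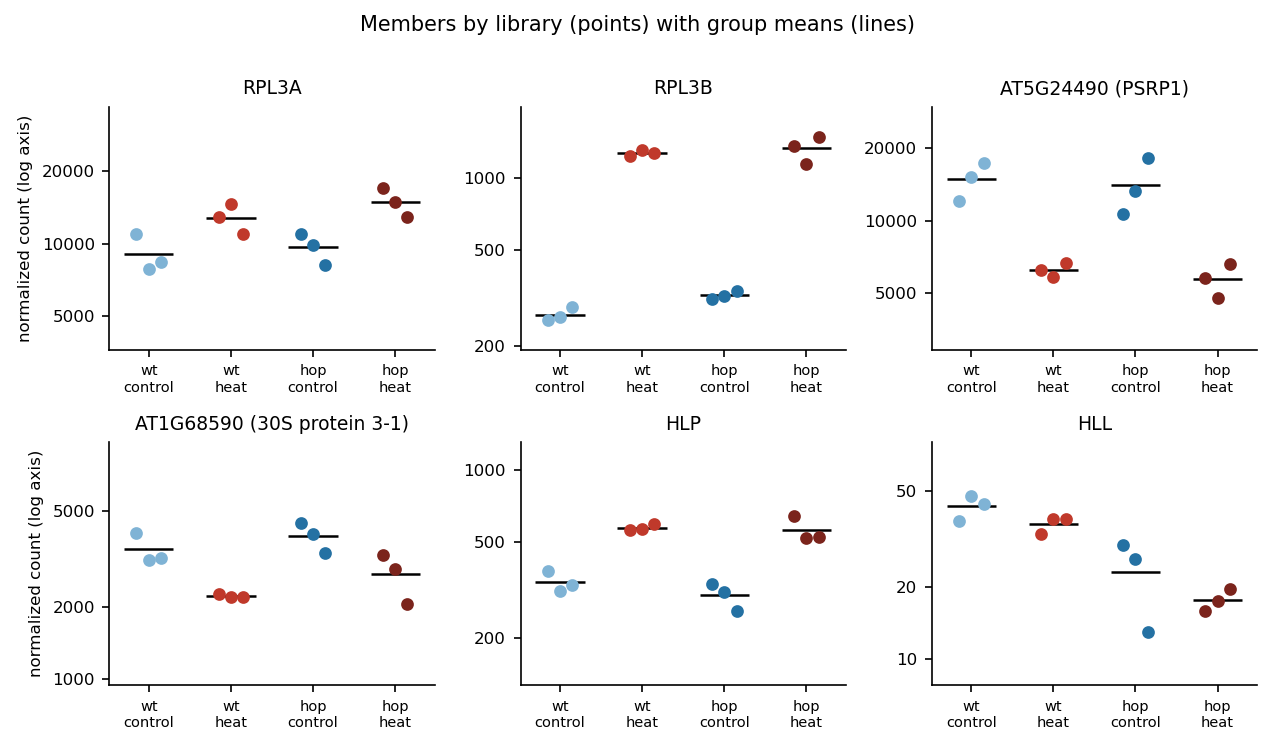
Normalized counts of 6 members in every library, on log axes that span the same ratio in each panel, with a line at each group mean. RPL3B rose and AT5G24490 and AT1G68590 fell in both genotypes also with library size alone, and RPL3A and HLP rose on the deposited scale only. HLL was called lower in hop under heat (adjusted p = 0.0367, limma) but not at control (adjusted p = 0.164). The call under heat was lost when some single libraries were left out.

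The 4 mitochondrial members parted in pairs. AT2G21290, for mitochondrial S31, had 433, 358 and 396 normalized counts in wt control and 849, 759 and 821 in wt heat, a log2 fold change of 1.04 ± 0.12 (adjusted p = 1.61e-06) and of 0.93 in hop, but 0.16 and 0.03 with library size alone. HLL and HLP both encode mitochondrial L14, and loss of HLL is known to arrest ovule development. HLP had 379, 312 and 331 in wt control and 562, 566 and 594 in wt heat (log2 fold change 0.76, or -0.12 with library size alone). HLL had 37.4, 47.9 and 44.4 in wt control and 33, 38.1 and 38.2 in wt heat, which overlapped (-0.24, adjusted p = 0.463). In hop HLL stood at -0.29 (adjusted p = 0.367), and was called lower at -0.64 without hop control replicate 3 (adjusted p = 0.0310). RPL21M, known as NFD1 for the nuclear fusion defect of its mutant, stood at -0.06 in wt and -0.20 in hop (adjusted p = 0.745 and 0.302). With library size alone HLL and RPL21M were called lower, at -1.14 and -0.90 in wt. Without wt heat replicate 2, RPL21M stood at 0.14 in wt on the deposited scale.

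Added up, members took up a smaller part of all fragments after heat. Their sum was 11340, 10830 and 11670 CPM in wt control and 9728, 8892 and 9581 in wt heat. In hop it was 11860, 11350 and 11000 at control and 10510, 8917 and 10160 under heat, so that in both genotypes all heat libraries lay below all control libraries. On the deposited scale the order was reversed, with summed normalized counts of 247300 ± 22100 and 379700 ± 26500 in wt and of 266500 ± 24100 and 436900 ± 45400 in hop (SD, n = 3). The sum of all members also fell against the cytosolic ribosomal protein genes, a ratio within each library, from 61.6 ± 0.952 to 50.9 ± 3.56 member fragments per 100 in wt and from 56.7 ± 0.916 to 52.5 ± 1.96 in hop, without overlap. This ratio includes AT5G24490, which went from 609 to 131 CPM in hop, and it was not taken without that gene. The typical member in hop did not fall against them: the median log2 fold change was 0.80 for members and 0.72 for cytosolic genes. In wt these medians were 0.70 and 0.76. The cytosolic genes took up 18330 ± 701 CPM in wt control and 18530 ± 1900 in wt heat. AT5G24490 alone went from 686 to 156 CPM in wt, which is part of the fall of the sum. The sum of the chloroplast members, which leaves AT5G24490 out, was 10790, 10060 and 10800 CPM in wt control and 9526, 8727 and 9349 in wt heat, without overlap, but in hop 11380, 10750 and 10140 at control and 10340, 8782 and 9955 under heat, which overlapped. Chloroplast-encoded transcripts took a variable share of each library, and over nuclear genes alone the sums kept their order, at 12050 and 9985 CPM in wt and 12360 and 10730 in hop.

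**Figure D3:**
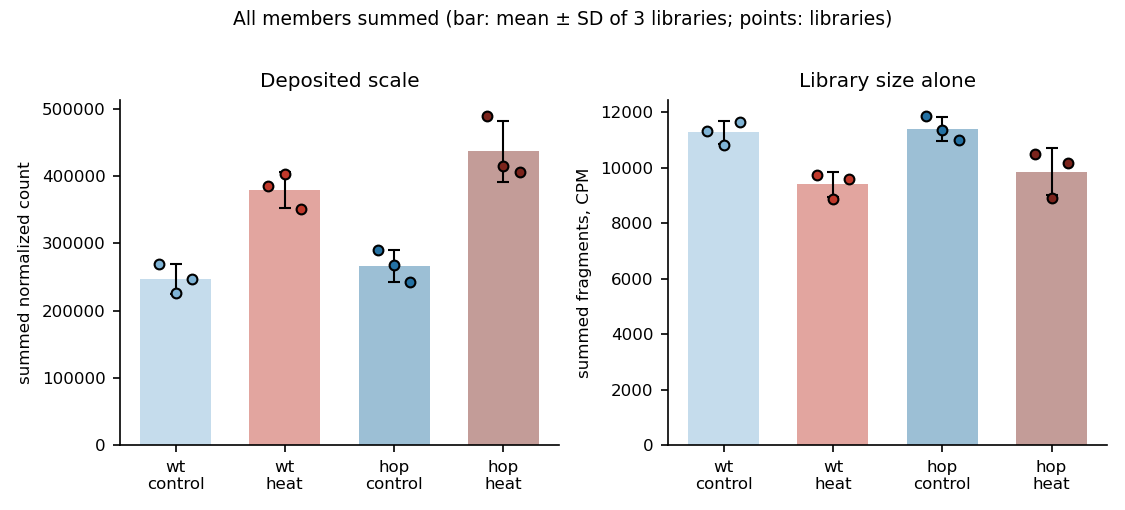
Sum of all members in each library (points) with the mean and SD of each group (bars), as normalized counts on the deposited scale and as CPM by library size alone. The sum was higher under heat on the first scale (379700 against 247300 in wt) and lower on the second (9400 against 11280).

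Members also moved together between replicates of 1 group. In wt control, 34 of 42 members lay above their group mean in replicate 1, 5 in replicate 2 and 17 in replicate 3. In hop heat the numbers were 39, 10 and 8. The median deviation of the members from the group mean ran from -0.18 to 0.17 on the log2 scale, so a single library shifted most members at once, by less than the members' median heat response. Counts of members over 1 comparison are for this reason not counts of independent genes.

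Of the rest of the chloroplast translation apparatus, most lists had members in both directions on the deposited scale. The lists were chosen with earlier results of these data known. Beside their counts, 33.2% of all genes were higher and 35.8% lower in wt, or 13.3% and 60.9% with library size alone. Of 14 assembly and rRNA factors, 10 were higher in wt and 3 lower (median 0.82), and with library size alone 2 were higher and 4 lower (median -0.06). ATRAP, which binds chloroplast 16S rRNA precursors, was higher by 1.36 and also by 0.50 with library size alone, while AT4G34730, described as a ribosome-binding factor in RefSeq, was lower by both at -1.15 and -2.03. Of 12 translation factors, 6 were higher and 2 lower in wt (median 0.39, or -0.49 with library size alone). They included CPEFG, elongation factor G, at 0.99 and APG3, a release factor, at 1.15, and, on the other side, AT4G30690, an initiation factor, at -1.32. With library size alone these 3 stood at 0.12, 0.26 and -2.21, and of the 12 factors 0 were called higher and 9 lower. Of 22 genes listed for chloroplast transcription, 15 were higher and 3 lower in wt (median 0.47, or -0.42 with library size alone). This list also holds GUN1 and the transcription factors GLK1 and GLK2, and GLK2 was among the 3 lower. The nuclear-encoded phage-type RNA polymerase RPOT3 went from 111 to 3287 normalized counts in wt and from 121 to 3983 in hop, by 4.94 and 5.03 on the log2 scale (3.97 in wt with library size alone). Of 7 mitochondrial translation factors, 3 were higher and 1 lower in wt (median 0.11, or -0.77 with library size alone).

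Cytosolic ribosomal protein genes had medians near those of the members, and organelle-encoded ones did not. Of 209 cytosolic genes tested, 172 were higher and 6 lower in wt, with a median of 0.76, or -0.11 with library size alone, beside 0.70 and -0.18 for the members. Of the 209, 34 were called higher and 75 lower in wt by library size alone, beside 2 and 20 of the 42 members. Of the 26 ribosomal protein genes listed in the chloroplast genome, 0 were higher and 12 lower in wt, with a median of -0.69, and -1.61 with library size alone, and in hop 4 were higher and 11 lower. On the scale of library size, 24 were called lower and 0 higher in each genotype. RPL14 and RPS3 of the chloroplast genome fell from 8768 to 2038 and from 10826 to 2324 normalized counts. All 6 mitochondrially encoded ribosomal protein genes were higher, with a median of 3.83 in wt, and 2.93 with library size alone. These organelle genes include near-identical copies in the inverted repeat, and their transcripts were sampled by an mRNA kit that selects poly(A), so their levels cannot be set beside those of nuclear genes.

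**Figure D4:**
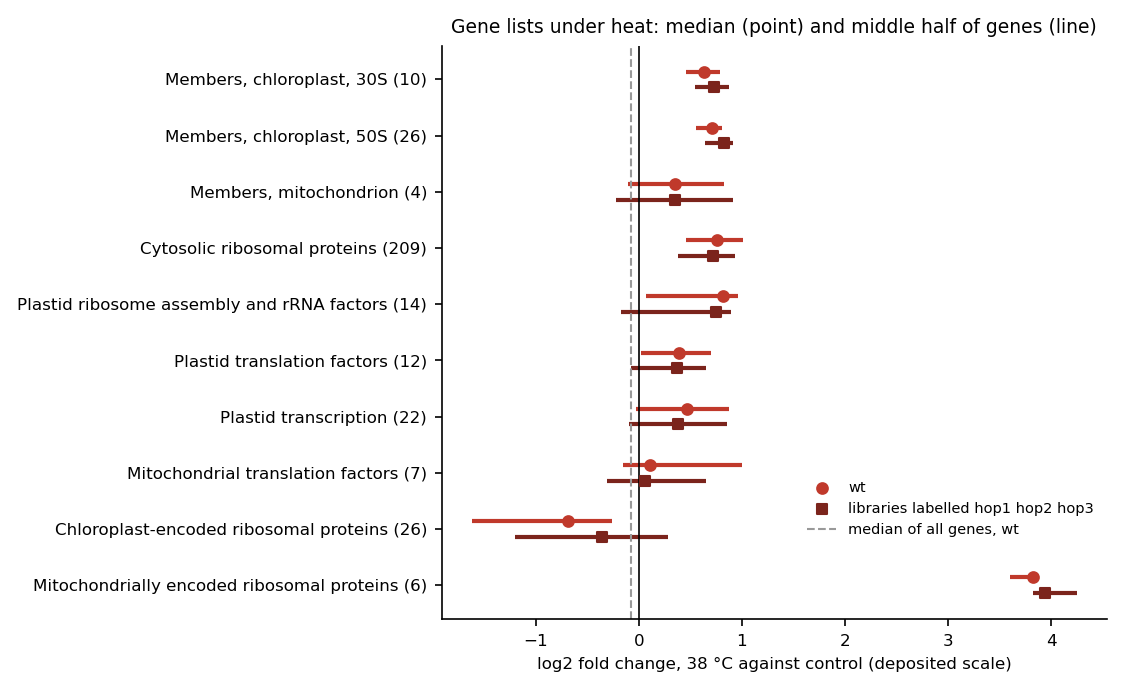
Median (points) and range between the quartiles (lines) of the log2 fold change at 38 °C against control on the deposited scale, for the members by class and for other lists, with the number of genes tested in brackets. Chloroplast members (0.63 and 0.71 in wt) stood beside cytosolic ribosomal protein genes (0.76), with chloroplast-encoded genes below 0 and mitochondrially encoded genes near 4. By library size alone the medians of both kinds of chloroplast members and of the cytosolic genes were below 0 (-0.25, -0.17 and -0.11 in wt).

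Few members passed a test between genotypes. At control, 0 of 42 members were called higher or lower in hop (limma, against 0.344% and 0.487% of all genes), 4 had an unadjusted p under 0.05 (10.3% of all genes), and edgeR and DESeq2 also called 0. The largest differences were -0.95 for HLL (adjusted p = 0.164) and -0.47 for AT5G15760 (adjusted p = 0.219). Under heat, 1 member was lower in hop and 0 were higher (4.89% and 3.73% of all genes). Most members nonetheless stood slightly above wt: 36 of 42 had a log2 fold change above 0, with a median of 0.20, where 55.3% of all genes were above 0 and the median of all genes was 0.04. Of the members, 14 had no overlap between genotypes and were higher in hop and 1 was lower (14.3% and 11.7% of all genes), and 12 had an unadjusted p under 0.05 (24.2% of all genes). A slight excess above wt was particular neither to heat nor to the members. At control, 37 of 42 members were above 0, with a median of 0.12, against 0.01 over all genes. Cytosolic ribosomal protein genes were above 0 in 191 of 209 at control and 184 under heat, with medians of 0.22 and 0.15.

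The member lower in hop under heat was HLL. It had 33, 38.1 and 38.2 normalized counts in wt heat and 15.9, 17.4 and 19.6 in hop heat, without overlap, and the log2 fold change was -1.01 ± 0.28 (adjusted p = 0.0367). At control it had 37.4, 47.9 and 44.4 in wt and 29.9, 26.2 and 13.0 in hop. The call rests on few fragments and was lost when any of 6 single libraries was left out, with adjusted p-values of 0.0555 without wt control replicate 3, 0.0708, 0.0850 and 0.0968 without wt heat replicates 1, 2 and 3, and 0.109 and 0.0881 without hop heat replicates 1 and 2. The smaller differences of other members depended on the fit. RPS10 stood at 0.29 ± 0.09 (adjusted p = 0.0580), and RPL12A and RPL12C at 0.31 (0.0963 and 0.102). RPS10 and RPL12A were called higher by DESeq2 (adjusted p = 0.0113 and 0.0471; 4.46% of all genes), and RPS10, RPL12A and RPL12C by limma with the replicate number as a block (0.0388, 0.0494 and 0.0301; 5.1% of all genes). Without hop heat replicate 3, AT1G68590, RPS10 and RPL12A were called higher. By library size alone, 0 members were called higher (0.877% of all genes).

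**Figure D5:**
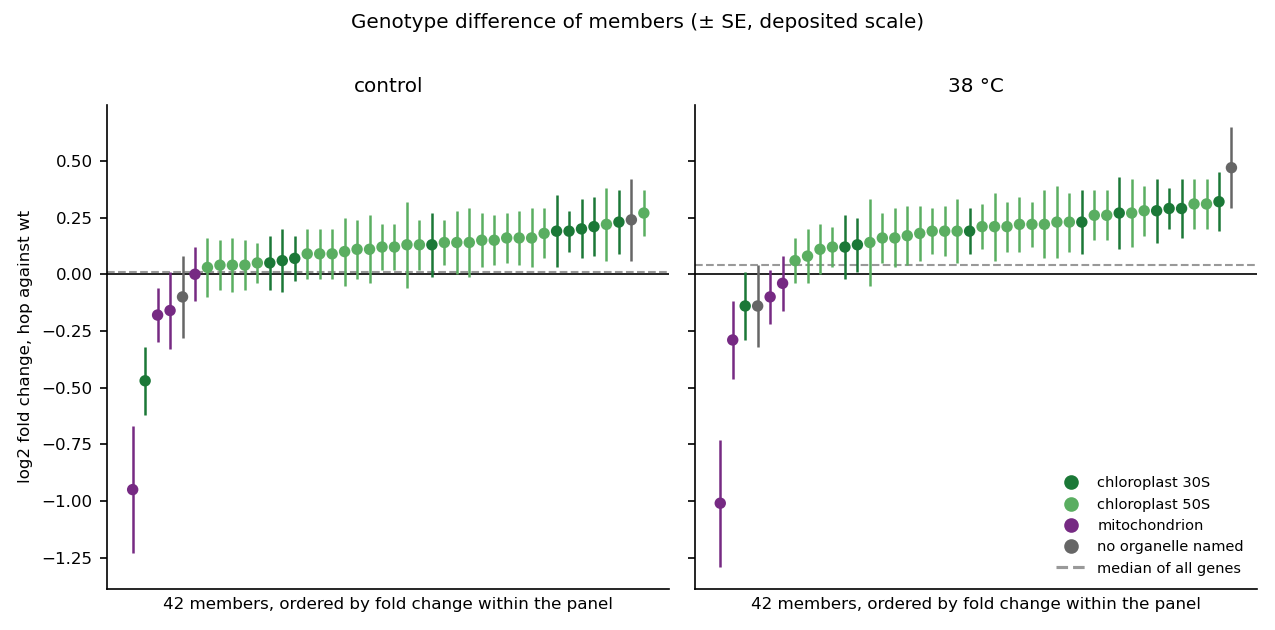
Log2 fold change of hop against wt for 42 members at control and at 38 °C on the deposited scale, with SE, each panel in its own order. Most chloroplast members stood just above the median of all genes in both panels (their medians were 0.13 and 0.21, or 0.04 and 0.08 with library size alone), and HLL was lowest in both, at -0.95 and -1.01.

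Of the chloroplast-encoded ribosomal protein genes, 13 of 26 were higher in hop under heat and 0 lower (3.73% and 4.89% of all genes), with a median of 0.68. With library size alone 8 were higher (0.877% of all genes), with a median of 0.54. The 13 include repeat copies of rpl2-B, rpl23-B, RPS7-A and rps12-B, so they stand for fewer separate genes. These transcripts were sampled through poly(A) selection, so the size of this difference is not set against that of the members. Of the nuclear genes listed for chloroplast transcription and mitochondrial translation, GLK2 and AT3G01800 were lower in hop under heat. GLK2, a transcription factor for nuclear photosynthesis genes, stood at 836 normalized counts in wt and 489 in hop (-0.77, adjusted p = 0.00134), and AT3G01800, a ribosome recycling factor in the mitochondrial list, at 131 and 70.6 (-0.87, adjusted p = 0.00957). For the heat response itself, 0 of 42 members differed between genotypes in limma (0.0126% of all genes were called higher and 0.0378% lower), DESeq2 or edgeR, and 0 had an unadjusted p under 0.05 in limma (9.55% of all genes). The interaction ran from -0.21 for RPL3B to 0.33 for AT5G15760 with a median SE of 0.17, so differences of that size were not detectable here. Both heat comparisons and both genotype comparisons share their libraries pairwise.

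In the authors' deposited table, 36 members were higher and 2 lower under heat in wt at an adjusted p under 0.05 (31.8% and 32.8% of all genes given an adjusted p there), and 37 and 2 in hop (29.4% and 30% of all genes). In the authors' deposited table, 0 members were higher or lower in hop at control (0.968% and 1.17% of all genes), and under heat 2 were higher and 1 was lower in hop (5.25% and 5.56% of all genes).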

How the data were processed

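A kit for stranded mRNA libraries was used for all 12 libraries, in 4 groups of 3, per the labels. The submitters' processing notes list TopHat2 2.1.0, HTSeq and DESeq2 1.1.14. Not given in the sources used here are genome build, annotation and filters. The deposited values are a normalized signal per the file headers, namely counts of fragments over a factor for each library. Since 100% of values were whole multiples of that factor within 0.01, the fragment counts were recovered. The authors also deposited log2 fold changes and adjusted p-values, which entered no test.

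The design's limma test (3.58.1, trend and robust, R 4.3.3) was run on log2(value + 1) with 4 group means. It covered the 23827 genes that reached 1 in 3 or more libraries, with Benjamini-Hochberg adjustment over all of them and a threshold of 0.05. Fold changes are on that scale, which understates changes of low genes. Recovered counts were tested with edgeR 4.0.16 (TMM, or library size alone) and DESeq2 1.42.0. Only the limma test was tried on simulated counts, for hop against wt under heat and with no shift of all genes between heat and control. Other alternatives were pseudocounts, filters, centring on the median of all genes, a replicate block, leaving out each library and, added after seeing the data, a correction for coding GC content and length. Replicate numbers are shared by the groups in the labels. Deviations of same-numbered wt and hop libraries from their group means correlated at 0.543, 0.333 and 0.351 at control, and at 0.059, 0.202 and 0.339 under heat. Differently numbered wt and hop libraries reached at most 0.11 at control and 0.132 under heat. Deviations sum to 0 within a group, so a positive correlation of same numbers by itself lowers the others. Between control and heat libraries, same numbers correlated at -0.056, -0.275 and 0.133 in wt and at 0.141, -0.057 and 0.248 in hop. Same numbers thus went together between genotypes at control, less so under heat, and pairing was not settled.

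Members and lists were chosen with earlier results of these data known. Members described with values follow a rule: the largest called changes under heat, members called between genotypes, the 5 most abundant and those with a known role. Other members named were chosen after their values were seen. Some members enter every count, median and sum but are not reported one by one here. A floor of 3 fragments per group covers counting error only. RefSeq gene models and upstream sequences of TAIR10.1 were joined by locus tag.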

Additional observations from a re-analysis of the deposited data

How the results depend on the processing

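On the deposited scale, the counts of members higher or lower under heat and the medians kept their direction with pseudocounts of 0.5 and 5, without a filter, with a filter of 10, with TMM, with DESeq2, with the median of all genes set to 0 and with the replicate block. Scaling by library size alone changed them. In wt 2 members were then higher and 20 lower with a median of -0.18, and in hop 2 were higher and 17 lower with a median of -0.12. On that scale the median of all genes was -0.94 in wt and -0.97 in hop. Which scale is nearer to RNA amounts was not tested. Single members changed sign with it (wt and hop): RPL15 -0.11 and -0.08, RPL13 -0.04 and -0.01, RPL1 -0.30 and -0.16, RPS13 -0.08 and -0.04, RPL24 -0.10 and -0.02, RPL4 -0.28 and -0.30, RPL27 -0.01 and -0.02, RPL11 -0.22 and -0.07, and in wt only RPS9 -0.03 and RPL28 -0.06. Among these values, only RPL1 and RPL11 in wt and RPL4 in both genotypes were called lower by edgeR, and the others passed no test. Correction for coding GC content and length, added after seeing the data, lowered the medians to 0.39 in wt and 0.51 in hop, and 29 of 36 and 34 of 37 members were still higher; the cause was not tested. With a log2 change of at least 1, 3 members were higher and 1 lower in wt, and 4 and 1 in hop. Counting only members with an organelle named left 1 lower in each genotype.

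Under heat, DESeq2 called 2 members higher in hop, the replicate block 3 and the GC and length correction 3; the cause was not tested. The block changed no other count of members by more than 1.5 times. Leaving out each library in turn gave 0 to 3 members higher and 0 to 1 lower there, medians of 0.63 to 0.76 for heat in wt, 0.72 to 0.86 for heat in hop, 0.04 to 0.21 for the genotypes at control and 0.12 to 0.26 under heat, and RPL21M from -0.21 to 0.14 for heat in wt, the latter without wt heat replicate 2. Summed member levels in CPM were 12050, 9985, 12360 and 10730 in wt control, wt heat, hop control and hop heat over nuclear genes alone, and 8955, 7224, 9036 and 7581 without the 5 most abundant members. Depth limited HLL, AT5G16200 and AT5G15760 most.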
